A study of Cocos nucifera and Zingiber officinale with 11 samples.

Results

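MIR-162, MIR-168 and MIR-403 are plant miRNA families whose targets are parts of the silencing machinery. Their members were taken as every name in the merged table with the number of one of these families after MIR, whatever its species prefix, letter or arm. This gave 13 of the 418 miRNAs, with 3 names of MIR-162, 6 of MIR-168 and 4 of MIR-403. Small RNA of edible plant-derived exosome-like nanoparticles (EPDELNs) was sequenced from 11 edible plants, 1 library per plant and no replicates. Fruits of blueberry, grapefruit, kiwifruit, orange and pear had been squeezed by hand. Ginger, Hami melon, pea, soybean and tomato had been ground in PBS. How coconut juice was obtained is not given in the sources used here. One library carries lima bean in its title and pea in its description, and is called pea here. No library of the source tissue is analysed here, and fewer particles with a miRNA and less of it per particle cannot be told apart.

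In plants a miRNA is cut from a hairpin precursor by Dicer-like 1 (DCL1) and loaded into an Argonaute protein, chiefly AGO1, which then cuts or represses the matching mRNA. MIR-162 acts on the mRNA of DCL1, MIR-168 on that of AGO1, and MIR-403 on that of AGO2, an Argonaute known for antiviral defence, as described in Arabidopsis. The enzyme that makes miRNAs and the proteins that use them are thus under miRNA control. Each hairpin gives a duplex of 2 arms, named 5p and 3p. In MIR-168 the 5p strand is the one known to act on AGO1. In MIR-162 and MIR-403 the strand known to act lies on the 3p arm, and the other strand is the passenger.

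The sequences below define the families and carry the differences between plants that the levels turn on. They are printed 5′ to 3′, as the reference sequence of the name in the deposited table or, where a plant is given, as listed in that plant, with the seed, bases 2 to 8, in capitals. The prefix of a name is the reference species and not the plant studied: mtr is Medicago truncatula, ath Arabidopsis thaliana, bdi Brachypodium distachyon, osa rice, bra Brassica rapa, aau Acacia auriculiformis, gma soybean and sly tomato. The MIR-162 names, on DCL1, share the seed CGATAAA except for the 5p strand.
mtr-MIR-162: tCGATAAAcctctgcatccag
bdi-MIR-162: tCGATAAAcctctgcatccgg
ath-MIR-162b-5p: tGGAGGCAgcggttcatcgatc
The MIR-168 5p names, on AGO1, share the seed CGCTTGG and differ only near the middle and at the last base.
mtr-MIR-168c-5p: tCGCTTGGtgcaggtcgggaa
bra-MIR-168c-5p: tCGCTTGGtgcaggtcgggac
osa-MIR-168a-5p: tCGCTTGGtgcagatcgggac
The MIR-168 3p names come from the opposite strand of the duplex, and the listed sequences of kiwifruit and of tomato and pear depart from the reference. The last sequence of this block, aau-MIR-168, is not a 3p name. It has no arm in its name and is described further below.
mtr-MIR-168c-3p: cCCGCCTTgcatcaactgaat
mtr-MIR-168c-3p as listed in kiwifruit: tCCGGCTTgcatcaactgaat
mtr-MIR-168c-3p as listed in tomato and pear: cCCGCCTTgcatcaactg
sly-MIR-168a-3p: cCTGCCTTgcatcaactgaat
aau-MIR-168 as listed in orange: cAGTTGATgcaaggcgggacc
The MIR-403 names, on AGO2, share the seed TAGATTC except for the 5p strand.
ath-MIR-403-3p: tTAGATTCacgcacaaactcg
ath-MIR-403-3p as listed in blueberry: tTAGATTCacgcacaaactctg
gma-MIR-403b: tTAGATTCacgcacaaacttg
sly-MIR-403-3p: cTAGATTCacgcacaagctcg
sly-MIR-403-5p: cGTTTGTGcgtgaatctaaca

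With positions counted from the 5′ end of the first name, bdi-MIR-162 differs from mtr-MIR-162 by A20G. bra-MIR-168c-5p differs from mtr-MIR-168c-5p by A21C, and osa-MIR-168a-5p by G14A and A21C. gma-MIR-403b differs from ath-MIR-403-3p by C20T, and sly-MIR-403-3p by T1C and A17G. Between the 3p names of MIR-168 the difference is C3T, from mtr-MIR-168c-3p to sly-MIR-168a-3p. All these changes lie within the number of mismatches (2) at which reads were assigned, so reads of 1 family may be shared between its names. Family sums are therefore given beside single names.

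Levels are in RPM, reads scaled by the authors to a common library total. Each library's values were whole multiples of 1 step, from which reads were recovered. The read total behind RPM was between 236959 (ginger) and 6518871 (kiwifruit), and the reads assigned to miRNAs between 4541 (coconut) and 377989 (kiwifruit). In every library the total behind RPM was below the high quality reads that the paper reports, and by unequal proportions. Which reads it holds is not given in the sources used here, so RPM of different plants may not be on the same scale. No listed value was under 5 reads, and in ginger none was under 7 reads. A name without a value is therefore called not listed, since fewer reads may have been there. The summed RPM differed widely, at 2939 in coconut and 533332 in soybean, so shares of a library's summed level are given with the RPM. Intervals are 95% (Wilson where the value is a share, exact Poisson where it is in RPM) and hold only counting error. With 1 library per plant no test between plants was made.

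The 3 families together held most in kiwifruit and coconut, and least in soybean and pea. They made up 9.25% of the summed level in kiwifruit (9.16–9.35), 8.98% in coconut (8.19–9.85), 5.21% in orange, 5.14% in pear, 4.84% in blueberry and 3.75% in tomato. The lower shares were 1.87% in ginger, 0.532% in Hami melon, 0.512% in grapefruit, 0.471% in pea and 0.373% in soybean (0.351–0.397). The mean over plants was 3.72% ± 3.31 (SD, n = 11 libraries). In this order the counting intervals of kiwifruit and coconut, of orange and pear, of Hami melon and grapefruit, and of grapefruit and pea overlapped, and those of the other neighbours did not. In RPM the order was another. Kiwifruit again was first with 5365 RPM (5309–5421), but orange with 2017 RPM, soybean with 1991 RPM and blueberry with 1844 RPM followed, and coconut was last with 264 RPM (239–291).

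**Figure D1:**
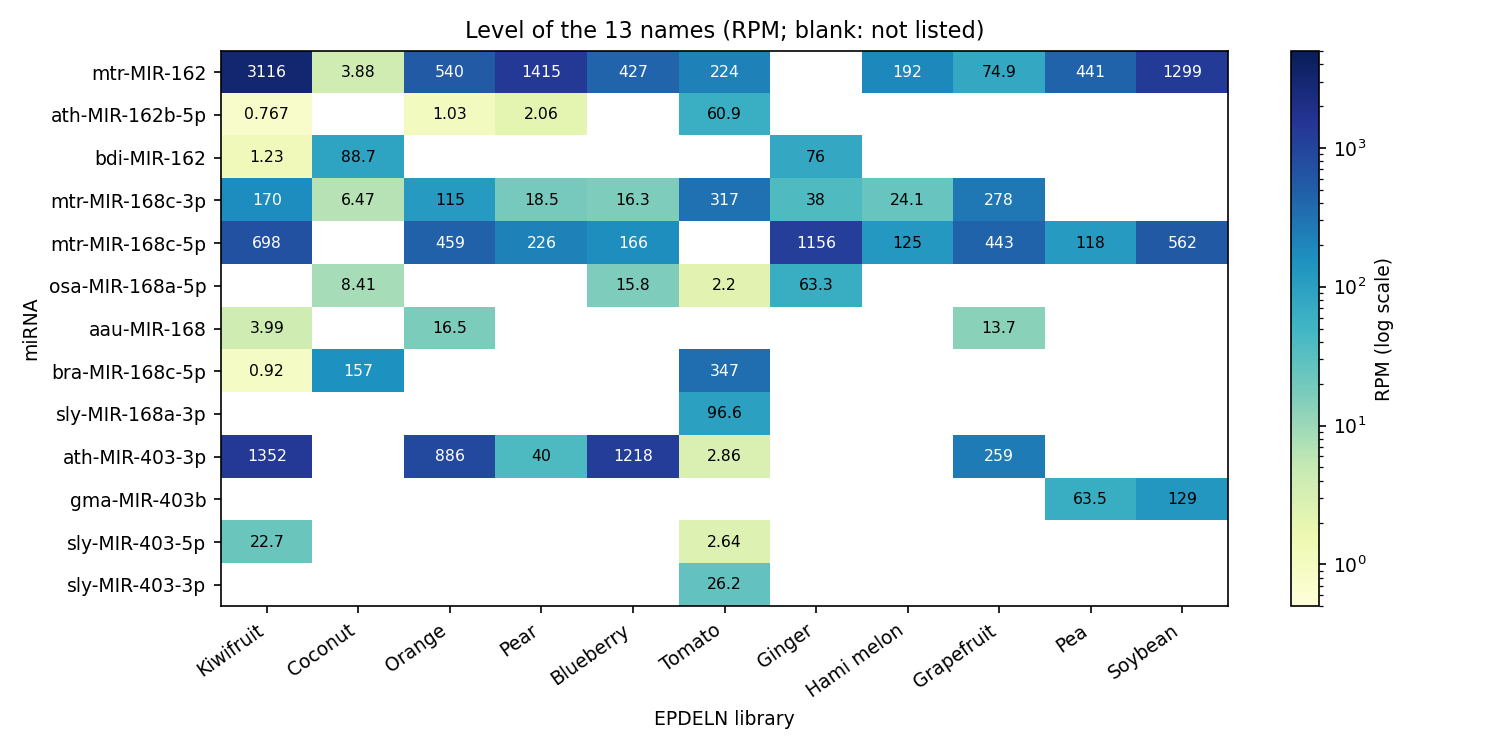
Level in RPM (colour on a log scale, value in each cell) of the 13 names in the 11 EPDELN libraries, ordered by the summed share of the 3 families. Blank cells are not listed; mtr-MIR-162 fills 10 of the 11 columns and sly-MIR-168a-3p and sly-MIR-403-3p 1 column each.

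Of the 13 names, 3 were in 8 to 11 libraries (23.1%), against 6.22% of all 418 miRNAs. These were mtr-MIR-162 in 10 libraries and mtr-MIR-168c-5p and mtr-MIR-168c-3p in 9 each. A further 3 were in 4 to 7 libraries, ath-MIR-403-3p in 6 and ath-MIR-162b-5p and osa-MIR-168a-5p in 4 each. The other 7 were in 1 to 3 libraries. As families, MIR-162 and MIR-168 were listed in all 11 libraries, as 11 of the 189 families were, and MIR-403 in 8. Tomato and kiwifruit listed 9 of the 13 names each, and soybean, pea and Hami melon 3 each. The plot of levels by name shows this as well filled columns of tomato and kiwifruit beside sparse ones of the legumes. Over all miRNAs soybean listed 127, tomato 118, kiwifruit 117, and pea and Hami melon 80 each. The level that 5 reads have was 0.767 RPM in kiwifruit and 1.10 RPM in tomato. It was 3.65 RPM in Hami melon, 9.50 RPM in soybean and 14.4 RPM in pea. Names under these levels would not be listed, and the part of depth in the difference was not tested.

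MIR-162, which acts on DCL1, was led by mtr-MIR-162 in 9 of the 11 libraries. This name had 3116 RPM in kiwifruit (3073–3159), 1415 RPM in pear, 1299 RPM in soybean, 540 RPM in orange, 441 RPM in pea and 427 RPM in blueberry. It had 224 RPM in tomato, 192 RPM in Hami melon, 74.9 RPM in grapefruit and 3.88 RPM in coconut (6 reads), and was not listed in ginger. Among the 10 libraries that listed it, kiwifruit thus stood highest and coconut lowest. It ranked 4 of 117 miRNAs in kiwifruit and 5 of 95 in pear, and 32 of 65 in grapefruit.

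In the place of mtr-MIR-162, coconut and ginger had the grass name bdi-MIR-162, with A20G. bdi-MIR-162 had 88.7 RPM in coconut (137 reads) and 76.0 RPM in ginger (18 reads), and 1.23 RPM in kiwifruit (8 reads). In coconut it was 22.8 times as frequent as mtr-MIR-162. In kiwifruit its reads were 0.0394% of those of mtr-MIR-162, from which it differs by 1 base. Coconut and ginger are the 2 monocots of the study, and the other 9 plants are eudicots. mtr-MIR-162 was listed in 9 of 9 eudicots and in 1 of 2 monocots, and bdi-MIR-162 in 1 of 9 eudicots and in 2 of 2 monocots. The lineages were set beside each other after the values had been seen, and no test was made. Whether the 8 reads of kiwifruit are a separate sequence or read errors of its neighbour was not tested.

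As a family, MIR-162 held 0.0359% of the level in grapefruit (0.0293–0.0440), 0.106% in ginger, 0.244% in soybean, 0.300% in Hami melon and 0.334% in pea. It held 0.991% in tomato, 1.12% in blueberry, 1.40% in orange, 3.15% in coconut, 4.28% in pear and 5.38% in kiwifruit (5.31–5.45). Only pea and Hami melon, among neighbours in this order, had overlapping intervals. The mean was 1.58% ± 1.85 (SD, n = 11 libraries). The family had rank 4 of 53 families in kiwifruit and rank 27 of 43 in grapefruit. Without the names set apart below as resembling tRNA or rRNA pieces the order changed. Grapefruit then had 0.220% and ginger 0.168%, with overlapping intervals. Tomato, with 2.77%, then stood above orange with 1.45% and blueberry with 1.19%.

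MIR-168, which acts on AGO1, had the narrowest range of the 3 families in RPM. It summed to 1258 RPM in ginger (1119–1409), 873 RPM in kiwifruit, 763 RPM in tomato, 734 RPM in grapefruit, 590 RPM in orange and 562 RPM in soybean. It summed to 245 RPM in pear, 199 RPM in blueberry, 172 RPM in coconut, 149 RPM in Hami melon and 118 RPM in pea (84.9–160). As a share coconut was first with 5.84% (5.19–6.56), before tomato with 2.65%, ginger with 1.76%, orange with 1.52% and kiwifruit with 1.51%. Pear had 0.740%, blueberry 0.521%, grapefruit 0.352%, Hami melon 0.232%, soybean 0.105% and pea 0.0894%. The intervals of ginger and orange, orange and kiwifruit, and soybean and pea overlapped. The mean was 1.39% ± 1.69 (SD, n = 11 libraries), and without coconut it was 0.948%. Without the names set apart below as resembling tRNA or rRNA pieces it was 2.41%, with 9.14% in coconut and 7.41% in tomato.

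**Figure D2:**
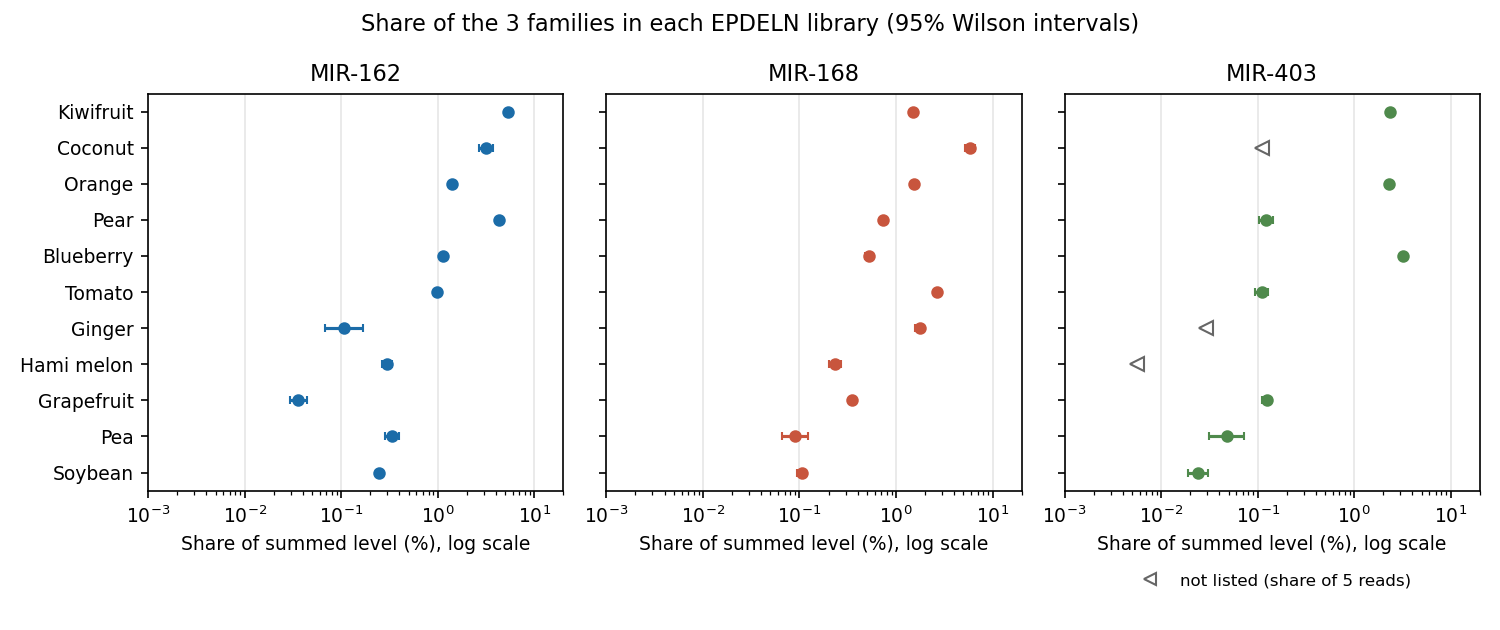
Share of the summed miRNA level (%, log axis) of MIR-162, MIR-168 and MIR-403 in each library, points with 95% Wilson intervals. Open triangles mark libraries in which MIR-403 was not listed, drawn at the share that 5 reads would have. MIR-162 is highest in kiwifruit (5.38%), MIR-168 in coconut (5.84%) and MIR-403 in blueberry (3.19%).

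The 5p strand of MIR-168 was listed under different names in different plants. mtr-MIR-168c-5p had 1156 RPM in ginger, 698 RPM in kiwifruit, 562 RPM in soybean, 459 RPM in orange, 443 RPM in grapefruit, 226 RPM in pear, 166 RPM in blueberry, 125 RPM in Hami melon and 118 RPM in pea. It was not listed in coconut and tomato. There bra-MIR-168c-5p, with A21C, led with 157 RPM in coconut (138–178) and 347 RPM in tomato (330–364). In ginger the sequence listed for mtr-MIR-168c-5p is 20 nt long and stops before the last base, at which these 2 names differ, so the names cannot be told apart there. bra-MIR-168c-5p was otherwise listed only in kiwifruit, with 6 reads and the changes T15A and G18T from its reference.

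The rice name osa-MIR-168a-5p accompanied these at a lower level. It had 63.3 RPM in ginger (15 reads), 15.8 RPM in blueberry (34 reads), 8.41 RPM in coconut (13 reads) and 2.20 RPM in tomato (10 reads), each time with the listed sequence equal to the rice reference. Beside the leading 5p name of the same library its reads were 9.52% in blueberry, 5.47% in ginger, 5.37% in coconut and 0.634% in tomato. Among these 4 libraries blueberry thus had the largest proportion of this form, and tomato the smallest. It was listed in 2 of 2 monocots and in 2 of 9 eudicots.

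The passenger strand of MIR-168 was listed in 9 libraries and reached high levels in tomato and grapefruit. mtr-MIR-168c-3p had 317 RPM in tomato (301–334), 278 RPM in grapefruit (249–309), 170 RPM in kiwifruit and 115 RPM in orange. It had 38.0 RPM in ginger (9 reads), 24.1 RPM in Hami melon, 18.5 RPM in pear, 16.3 RPM in blueberry and 6.47 RPM in coconut (10 reads). Tomato had a second 3p name, sly-MIR-168a-3p, with 96.6 RPM. Soybean and pea listed no 3p name.

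The ratio of 5p to 3p reads of MIR-168 ranged between plants far beyond counting error. It was 32.1 in ginger (exact binomial 16.7–70.9), 25.5 in coconut (13.6–53.8), 12.2 in pear (9.43–16.0), 11.2 in blueberry (7.90–16.3) and 5.18 in Hami melon (3.55–7.77). It was 4.11 in kiwifruit (3.85–4.39), 3.98 in orange (3.63–4.38), 1.59 in grapefruit (1.39–1.83) and 0.843 in tomato (0.788–0.902). Tomato was the only library of these 9 in which the 3p strand exceeded the 5p strand, with 1587 reads of 5p and 1882 reads of 3p. Soybean had 296 reads of 5p and no listed 3p, and pea 41 reads of 5p and no listed 3p, so that 5p stood 59.2 times (soybean) and 8.20 times (pea) above 5 reads. The lowest ratios were in tomato and grapefruit. Both had the largest share of reads under names set apart as resembling tRNA or rRNA pieces, 64.2% in tomato and 83.7% in grapefruit. That share was 36.6% in ginger and 36.2% in coconut, which had the highest ratios among libraries listing both strands. It was 9.87% in soybean and 0.977% in pea, which listed no 3p, and between 3.65% and 14.0% in the other 5 libraries. Its part in the ratio was not tested.

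**Figure D3:**
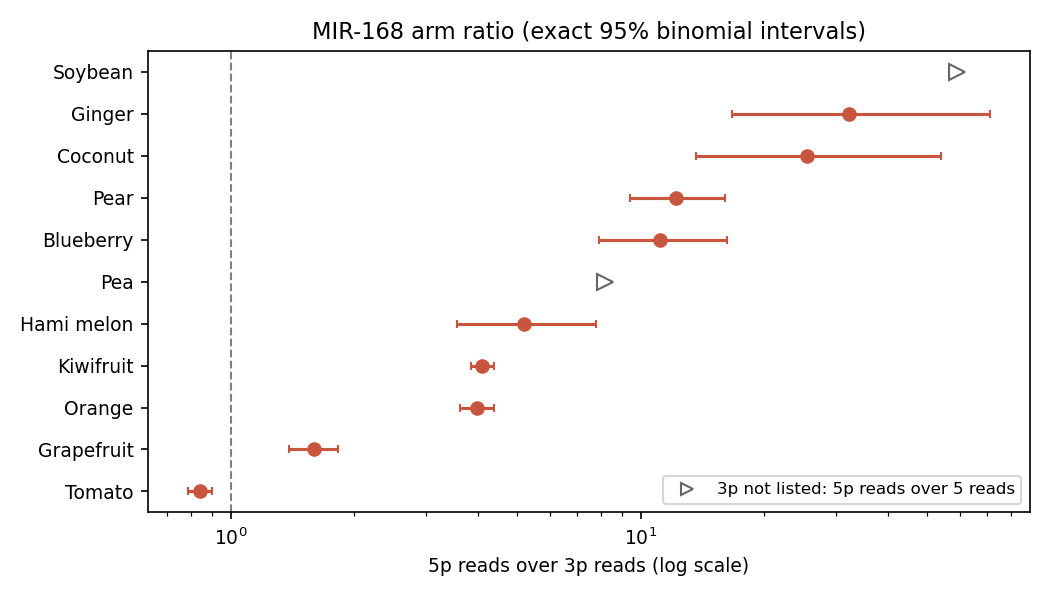
Reads of the MIR-168 5p names over reads of the 3p names (log axis) in each library, points with exact 95% binomial intervals. The dashed line marks equal reads. Open triangles mark soybean and pea, where no 3p name was listed, at the 5p reads over 5 reads. Ginger (32.1) and coconut (25.5) lie far to the right and tomato (0.843) left of the line.

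For the single pair of names with the same reference species the 5p strand was higher in each of the 7 libraries that listed both. Tomato, where 3p reads exceeded 5p reads, did not list mtr-MIR-168c-5p, so the count and the p leave it out. The mean log2 ratio of mtr-MIR-168c-5p to mtr-MIR-168c-3p was 2.71 ± 1.38 (SD, n = 7), which is 6.54-fold (two-sided exact sign-flip permutation p = 0.0156, the smallest that 7 libraries allow, adjusted p = 0.0469 over 3 ratios). Leaving out any 1 of the libraries kept the mean between 2.34 (without ginger) and 3.05 (without grapefruit). With names that were not listed put at 5 reads, over all 11 libraries, the mean was 1.70 and the call was lost (exact permutation p = 0.168, 5p higher in 9 libraries). The libraries against it there were coconut and tomato, which listed their 5p strand under bra-MIR-168c-5p. With sums of names 5p was higher in 8 of 9 libraries (mean log2 ratio 2.62), and tomato was still the exception.

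Among libraries that listed both strands, tomato also had the passenger strand closest to the main strand in the other families. For MIR-162 the 5p strand, ath-MIR-162b-5p, had 60.9 RPM in tomato (277 reads), 2.06 RPM in pear (7 reads), 1.03 RPM in orange (5 reads) and 0.767 RPM in kiwifruit (5 reads). The main strand exceeded it 3.68-fold in tomato (3.22–4.22), 522-fold in orange, 687-fold in pear and 4064-fold in kiwifruit. For MIR-403 the 3p strand exceeded sly-MIR-403-5p 11.0-fold in tomato (6.09–21.8) and 59.5-fold in kiwifruit (50.6–70.5). These were the only libraries with both strands of those families, and tomato was lowest for each of the 3. Ginger listed only the main strand of MIR-162, 3.60 times above 5 reads, and pea only that of MIR-403, 4.40 times. Ginger (MIR-162) and pea (MIR-403) thus cannot be placed above or below tomato. Over the 14 families of tomato with names of both arms the lesser arm held a median of 13.5% of the reads. For MIR-168 in tomato the lesser arm was 5p, the main strand, with 45.7%. In grapefruit the median was 23.8% over 5 families, and the lesser arm of MIR-168 was 3p, with 38.5%.

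MIR-403, which acts on AGO2, was high in blueberry, kiwifruit and orange and lower or not listed elsewhere. ath-MIR-403-3p had 1352 RPM in kiwifruit (1324–1380), 1218 RPM in blueberry (1172–1266), 886 RPM in orange (859–913), 259 RPM in grapefruit, 40.0 RPM in pear and 2.86 RPM in tomato (13 reads). The legume name gma-MIR-403b took its place in soybean with 129 RPM (68 reads) and in pea with 63.5 RPM (22 reads). In tomato the tomato name sly-MIR-403-3p led with 26.2 RPM (119 reads). The 8 plants with MIR-403 thus differed in which reference name led, ath in 5, gma in 2 and sly in 1.

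As a family MIR-403 held 3.19% of the level in blueberry (3.08–3.32), where it was the second of 53 families, 2.37% in kiwifruit and 2.29% in orange. It held 0.124% in grapefruit, 0.121% in pear, 0.110% in tomato, 0.0480% in pea and 0.0242% in soybean (0.0191–0.0307). In these shares a gap lay between the 3 high libraries and the other 5. Kiwifruit and orange had overlapping intervals, as did grapefruit, pear and tomato among neighbours. Over all libraries, with those that did not list it at 0, the mean was 0.752% ± 1.22 (SD, n = 11), and without blueberry 0.508%. Without the names resembling tRNA or rRNA pieces MIR-403 held 2.37% in orange, 0.761% in grapefruit (0.683–0.849), 0.307% in tomato and 0.134% in pear. The gap was then narrower, and the intervals of grapefruit, tomato and pear did not overlap.

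Coconut, ginger and Hami melon listed no MIR-403 name, so it was in 8 of 9 eudicots and in 0 of 2 monocots. The depth bears on this unequally. In Hami melon 5 reads, its smallest listed count, are 0.00570% of the miRNA reads, under the lowest listed share, that of soybean. In coconut they are 0.110%, no lower than the shares of tomato, pea and soybean, and in ginger 0.0295%, above that of soybean. The smallest listed count of ginger, 7 reads, is 0.0414%. A MIR-403 share like that of blueberry, kiwifruit or orange would have been listed in all 3. One like that of soybean lies under the share of 5 reads in coconut and ginger, and may have gone unlisted there.

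The makeup of the group gave 3 kinds of library. MIR-162 led in 5 plants, with 83.3% of the group's reads in pear, 70.8% in pea, 65.3% in soybean, 58.1% in kiwifruit and 56.3% in Hami melon. MIR-168 led in 4 plants, with 94.3% in ginger, 70.7% in tomato, 68.7% in grapefruit and 65.0% in coconut. MIR-403 led in 2 plants, with 66.1% in blueberry and 43.9% in orange.

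**Figure D4:**
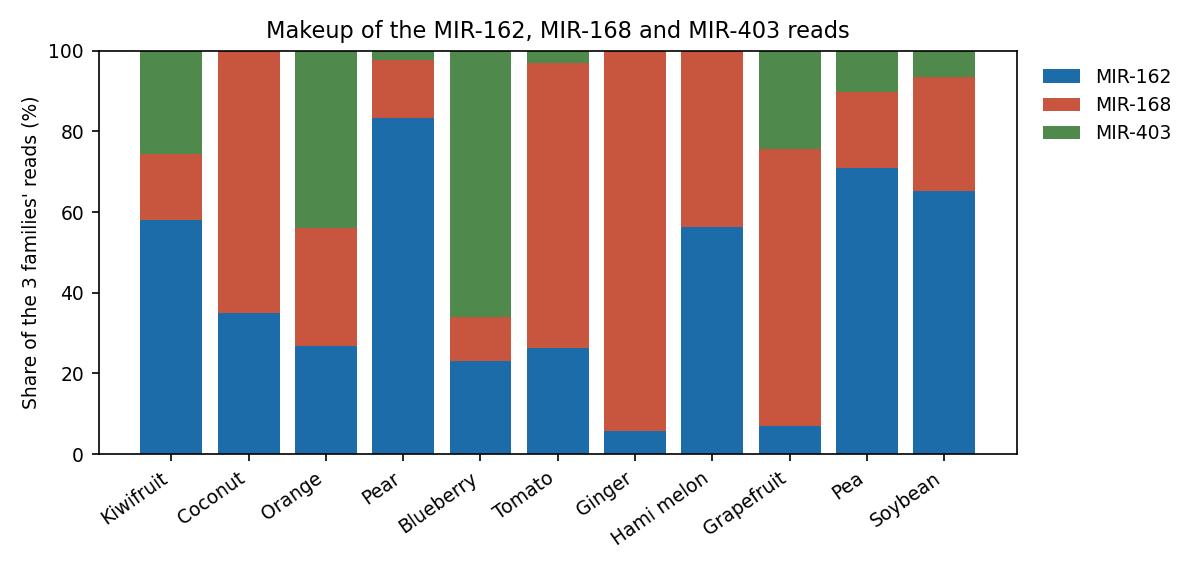
Share (%) of the reads of the 3 families that fell to MIR-162, MIR-168 and MIR-403 in each library, bars adding to 100%. Ginger is nearly all MIR-168 (94.3%), pear mostly MIR-162 (83.3%) and blueberry mostly MIR-403 (66.1%).

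For single names the relation between families varied with the plant. mtr-MIR-162 exceeded mtr-MIR-168c-5p in 7 of the 8 libraries that listed both, at a mean log2 ratio of 0.95 ± 1.62 (SD, n = 8), which did not pass the test (two-sided exact permutation p = 0.141, adjusted p = 0.211). The exception was grapefruit, where mtr-MIR-162 had 0.169 times the level of mtr-MIR-168c-5p. Without this contrary library the mean was 1.45 (exact permutation p = 0.0156, not adjusted, n = 7). All 7 ratios left were positive, so this p is the smallest that 7 libraries allow. It is no support for a difference, since the only contrary library had been taken out. Coconut, ginger and tomato, where MIR-168 led the group, did not list both names and so did not enter this ratio. With sums of names MIR-162 exceeded MIR-168 in 6 of 11 libraries, at a mean log2 ratio of −0.075 (exact permutation p = 0.913). mtr-MIR-162 exceeded ath-MIR-403-3p in 3 of 6 libraries, 78.5-fold in tomato, 35.4-fold in pear and 2.30-fold in kiwifruit, and was lower in orange, blueberry and grapefruit (mean log2 ratio 1.44 ± 3.50, SD, n = 6, exact permutation p = 0.438). Different miRNAs can be ligated and amplified with different yield, so these ratios compare sequenced reads.

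The citrus fruits, orange and grapefruit, listed the same leading sequence for each family and differed in level. MIR-162 had 541 RPM in orange and 74.9 RPM in grapefruit, 7.22-fold. MIR-403 had 886 RPM in orange and 259 RPM in grapefruit, 3.42-fold, while MIR-168 had 590 RPM in orange and 734 RPM in grapefruit. As shares all 3 families were higher in orange. The names set apart as resembling tRNA or rRNA pieces held 3.65% of the reads in orange and 83.7% in grapefruit. Without these names MIR-168 held 1.58% in orange and 2.16% in grapefruit, MIR-162 1.45% in orange and 0.220% in grapefruit, and MIR-403 2.37% in orange and 0.761% in grapefruit. The legumes, soybean and pea, listed the same 3 names, mtr-MIR-162, mtr-MIR-168c-5p and gma-MIR-403b, each with the same sequence. In RPM soybean exceeded pea 2.94-fold, 4.75-fold and 2.04-fold for these. As shares the families were 0.244%, 0.105% and 0.0242% in soybean and 0.334%, 0.0894% and 0.0480% in pea.

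The names set apart as resembling tRNA or rRNA pieces were those of MIR-8175, MIR-8155, MIR-6478, MIR-6300, MIR-5072, MIR-5054 and MIR-2916. They were taken as a fixed list. Their sequences were not compared with tRNA or rRNA here, and the paper treats MIR-8155 as a miRNA. Without these names the 3 families held 14.1% of the level in coconut (12.9–15.4), 10.5% in tomato (10.2–10.8), 9.63% in kiwifruit and 3.14% in grapefruit. Coconut and tomato then stood above kiwifruit, and soybean with 0.414% and pea with 0.476% stayed lowest.

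The listed sequences of the group stayed close to their references. A name and a library were paired 57 times, and in 41 of these pairs the listed sequence equalled the reference (71.9%), against 41.9% of all 950 pairs. It was shorter than the reference in 11 pairs (19.3%), against 38.9% of all pairs, and 21 nt long in 44 (77.2%). Of the 11 shorter ones 5 were in tomato, 2 in ginger and 1 each in grapefruit, kiwifruit, orange and pear. Tomato was also the library with the largest percentage of shorter sequences over all its miRNAs, at 66.1%, against 23.4% in orange.

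Where sequences were shorter, they mostly lacked bases at the 3′ end. Both 3p names of MIR-168 were 18 nt long in tomato and mtr-MIR-168c-3p also in pear, and it was 17 nt long in ginger. mtr-MIR-162 lacked its last base in tomato. ath-MIR-162b-5p in tomato instead began 1 base later, which moves its seed to GAGGCAG. The 3 listed sequences of aau-MIR-168 also began later, at base 4 of their reference. Kiwifruit listed mtr-MIR-168c-3p (1108 reads) with C1T and C5G from the reference, so that its seed reads CCGGCTT and not CCGCCTT. It also listed sly-MIR-403-5p (148 reads) with C1A and A21C. In blueberry all 2613 reads of ath-MIR-403-3p stand under a sequence of 22 nt, with G21T and 1 further base. The table gives only the most abundant sequence of each pair, so how many reads had it is not known.

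aau-MIR-168 has no arm in its name and a sequence unlike the other MIR-168 names. Its reference holds the reverse complement of all 21 bases of mtr-MIR-168c-3p. The sequences listed for it in orange (80 reads), kiwifruit (26 reads) and grapefruit (17 reads) were shorter than this reference by 3, 5 and 4 bases, and each held 18 bases of that reverse complement. It had 16.5 RPM in orange, 13.7 RPM in grapefruit and 3.99 RPM in kiwifruit. Its reads were 14.4% of those of mtr-MIR-168c-3p in orange, 4.93% in grapefruit and 2.35% in kiwifruit. For comparison, sly-MIR-403-5p matches the reverse complement of ath-MIR-403-3p at 18 bases with 1 mismatch, as arms of 1 duplex do, and mtr-MIR-168c-5p that of mtr-MIR-168c-3p at 14 bases with 5 mismatches. Its reads were left out of the 5p to 3p ratio.

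Of 3 other families looked up for their ties to the small RNA machinery, only MIR-390 was listed. No name of MIR-838, which comes from the DCL1 transcript in Arabidopsis, or of MIR-173, a trigger of trans-acting siRNAs in Arabidopsis, was in the table. MIR-390, which works with AGO7 to set off trans-acting siRNAs, had 4 names in 5 libraries. It had 468 RPM in grapefruit, 272 RPM in orange, 90.4 RPM in kiwifruit, 41.8 RPM in soybean and 10.6 RPM in tomato. As shares it held 0.702% in orange, 0.224% in grapefruit, 0.156% in kiwifruit, 0.0367% in tomato and 0.00784% in soybean. In RPM and as shares its order of plants differed from that of the 3 families, with kiwifruit behind both citrus fruits.

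The shares of MIR-162 and MIR-403 were each most like those of MIR-166, and those of MIR-168 most like those of MIR-8155. Among 25 other families listed in at least 8 libraries, those whose shares ordered the 11 plants most like MIR-162 were MIR-166 (Spearman rho 0.70), which acts on HD-ZIP III genes, MIR-171 (rho 0.63), on GRAS genes, and MIR-396 (rho 0.53), on growth regulating factors. For MIR-403 they were MIR-166 (rho 0.51), MIR-393 (rho 0.49), on auxin receptors, and MIR-162 itself (rho 0.40). For MIR-168 they were MIR-8155 (rho 0.58), MIR-6478 (rho 0.56) and, with the same rho of 0.40, MIR-5054 and MIR-162. The first 3 of these are among the names set apart as resembling tRNA or rRNA pieces. MIR-168 and MIR-403 had a rho of −0.06 with each other. These are descriptions over 11 libraries, which share denominators within a plant and differ in depth, and no test was made.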

How the data were processed

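The authors removed low-quality reads, repeats and adaptors, used MIRPIPE with the plant miRNAs of miRBase 21.0, tolerating as many as 2 mismatches, and deposited levels as RPM, with the most abundant sequence of each miRNA. The deposited RPM values of the merged table and of the 11 files of single libraries were the same in all 950 pairs above 0 (relative tolerance 1e-08), as were the sequences. RPM were not rescaled. Every value of a library was a multiple of 1 step (to 0.01 of a read), which gave the reads. A count model was not used, since each plant has 1 library. The total behind RPM is not named in the sources used here.

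Shares are of a library's summed level. Names were compared by sliding without gaps. Ratios of single names were tested over libraries by exact two-sided sign-flip permutation, with Benjamini-Hochberg adjustment over 3 ratios. Recovery, comparison and test were tested on simulated data. The members, lists, ratios and alternatives were chosen with earlier results of these data known. All 13 members are named, and likeness names the 3 other families, listed in at least 8 libraries, with the highest Spearman rho, ties included. Alternatives were a minimum of 10 reads or the highest of the smallest listed RPM values, sequences of 18 nt or more, the smallest read total, no fragment-like names, a pseudocount of 1 RPM, names not listed at 5 reads, sums of names, and leaving out each library. Scripts ran in Python 3.11.15. Tests and intervals used scipy 1.17.1, tables pandas 2.3.3 and numpy 2.4.6, and plots matplotlib 3.10.9.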

Additional observations from a re-analysis of the deposited data

How the results depend on the processing

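Of 102 recomputed values 97 kept their direction and their side of the threshold, or stayed within 1 SD for shares and 1.5 times for counts. The mean log2 ratio of mtr-MIR-168c-5p to mtr-MIR-168c-3p lost its call at 1.70 with names not listed put at 5 reads and at 2.14 on log2 of RPM plus 1. The contrary libraries there were coconut and tomato, which list their 5p strand under another name. With the sums of names the mean was 2.62, and only tomato was contrary. mtr-MIR-162 over mtr-MIR-168c-5p turned to −0.075 with sums of names and ranged over 0.70–1.45 when each library was left out. It passed the test only without grapefruit, its single contrary library, which fixes the p at its smallest value. mtr-MIR-162 over ath-MIR-403-3p passed at 3.38 on log2 of RPM plus 1, where libraries that do not list ath-MIR-403-3p enter it at 0. Among these are soybean and pea, which list MIR-403 as gma-MIR-403b. With sums of names the mean was 1.45 (exact permutation p = 0.156, n = 8). Without 1 library the mean of this ratio ranged from 0.47 (without tomato) to 2.08, and the cause was not tested. The mean share of the 3 families ranged over 3.17–4.06% without 1 library, and was 5.27% without the fragment-like names. MIR-403 had a single name at or above 29.5 RPM in 7 libraries, tomato not among them. No paired analysis was possible because each plant has 1 library, apart from the ratios of names within a library. Depth limits the names with 10 reads or fewer (9 of 57 pairs).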
